A study of Drosophila melanogaster with 2 samples.

Results

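The peaks described here lie in introns, more than 500 and up to 2000 bp from the nearest transcription start site (TSS), and mark DNA recovered with an eGFP-tagged form of CG7372 from Drosophila melanogaster embryos. They were taken from the conservative list of reproducible peaks on the main chromosome arms. A peak was kept if its summit, the base where the peak is highest, lay in that range from the nearest TSS of any gene, inside a transcript and outside every annotated exon (Ensembl BDGP6.54 annotation, dm6 coordinates). The rule used position only, and it kept 692 of 4593 peaks, or 15.1% (95% Wilson interval 14.1 to 16.1). The series is chromatin immunoprecipitation with sequencing (ChIP-seq) of whole transgenic embryos aged 0 to 24 h, with an antibody against GFP and chromatin sonicated to 200 to 800 bp. All embryos carried the CG7372-eGFP insertion, and the labels give 1 strain, no second condition and no sex. The 2 biological replicates form 1 group, so no test between conditions was possible. The promoter that drives the fusion is not in the labels, embryos of all these ages and all tissues were mixed, and the tissue cannot be checked from peak positions. The insertion may add a copy of the sequence around CG7372 to the genome. No control library was analysed here.

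An intron is transcribed and then spliced out of the RNA, and in flies the introns that follow a start site often hold enhancers and alternative promoters of the gene around them. A ChIP-seq peak there marks DNA that was recovered with the tagged protein, through direct contact or through other proteins, and does not by itself show an effect on a gene. The lists were filtered by the irreproducible discovery rate (IDR), which keeps peaks that rank alike in the sets compared.

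The summit sequences of the 692 peaks had 2 features that the results below turn on, and 9 of them are shown to make both visible. Some held one of 10 leading words, the 8-bp sequences most in excess at the summits of all the other peaks over sequence 300 bp away: CATACGCC, GCGTATAC, CGTATACG, CGCATACG, GCATACGC, TATACGCA, ATACGCCG, ACGTATAC, GCGTATGA and GGCGTATA, searched on both strands. These words overlap one another: each holds CGTAT or its reverse complement ATACG, and CGTATACG is its own reverse complement. The windows below reach 50 bp to either side of the summit (101 bases, plus strand, 5′ to 3′, Release 6 sequence from RefSeq, equal to dm6), and capitals mark leading words. The first 6 are the members of highest signal that hold a leading word, contain no exon base and lie on the arms shown, 1 arm being left out of the printing. They are named by the gene around them. CG33080 and Eip75B, an ecdysone-induced nuclear receptor, are followed by Hk, a beta subunit of potassium channels, SCaMC, a mitochondrial carrier, comm3, a relative of the axon guidance gene comm, and beat-Ib, of the beat family of axon guidance genes.
CG33080, chrX:5716079-5716179: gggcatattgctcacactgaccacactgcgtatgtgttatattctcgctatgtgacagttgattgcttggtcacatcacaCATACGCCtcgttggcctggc
Eip75B, chr3L:17962463-17962563: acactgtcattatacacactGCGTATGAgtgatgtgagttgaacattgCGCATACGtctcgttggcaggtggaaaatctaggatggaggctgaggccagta
Hk, chrX:10243016-10243116: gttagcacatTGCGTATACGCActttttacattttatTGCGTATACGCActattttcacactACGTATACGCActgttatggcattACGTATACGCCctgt
SCaMC, chr3L:12407233-12407333: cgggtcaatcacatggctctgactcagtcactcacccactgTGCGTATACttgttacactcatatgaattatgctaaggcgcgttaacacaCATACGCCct
comm3, chr3L:15627424-15627524: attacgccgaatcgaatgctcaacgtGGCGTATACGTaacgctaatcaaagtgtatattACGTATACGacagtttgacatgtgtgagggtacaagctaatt
beat-Ib, chr2L:15913682-15913782: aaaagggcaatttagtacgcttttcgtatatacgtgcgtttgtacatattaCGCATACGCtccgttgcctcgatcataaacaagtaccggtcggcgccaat
Others held no leading word, and the strongest of these were rich in A and T. The next 3 windows are the strongest without a word, by the same conditions, in CG11050, CG32772 and Trl, which encodes the GAGA factor, with A+T contents of 77.2%, 72.3% and 70.3%.
CG11050, chr2L:6612659-6612759: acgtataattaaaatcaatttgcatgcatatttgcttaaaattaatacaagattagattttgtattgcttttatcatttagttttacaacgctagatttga
CG32772, chrX:4910324-4910424: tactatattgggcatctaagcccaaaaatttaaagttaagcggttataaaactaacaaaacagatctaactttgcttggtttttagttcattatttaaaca
Trl, chr3L:14759475-14759575: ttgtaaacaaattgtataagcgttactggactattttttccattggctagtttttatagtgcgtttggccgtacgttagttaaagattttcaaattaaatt

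The window in Hk held 4 separate sites of leading words in 101 bases, each of them with the palindrome CGTATACG. Most windows held fewer: of the 692, 124 held 1 site, 31 held 2 sites, 1 held 3 and 1 held 4. Words that overlapped were counted as 1 site.

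Peaks were dense in this intron sequence. Intron sequence in this range from a TSS made up 8.35% of the bases, 11.4 Mb, and held 60.5 peaks per Mb. Sequence within 500 bp of a TSS (promoter peaks) held 107 per Mb, introns farther than 2000 bp from a TSS held 26.4, intergenic sequence 17.8 and exons 5.88, against 33.5 on all arms. The near introns were thus 1.80 times as dense as the arms as a whole, below promoters and above the other classes. Within the near introns the density was 70.9 peaks per Mb up to 1000 bp from the TSS (313 peaks), 57.0 from there up to 1500 bp (215 peaks) and 50.4 up to 2000 bp (164 peaks). By arm it was 72.2 per Mb on X (159 peaks), 66.3 on 3R (173), 59.1 on 2R (125), 59.0 on 3L (136) and 47.4 on 2L (98). Chromosome 4 held 1 such peak in 0.129 Mb and the Y chromosome none in 0.0175 Mb, too little sequence to compare. X, the densest arm, is carried in 1 copy in males, and sex was not recorded.

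**Figure D1:**
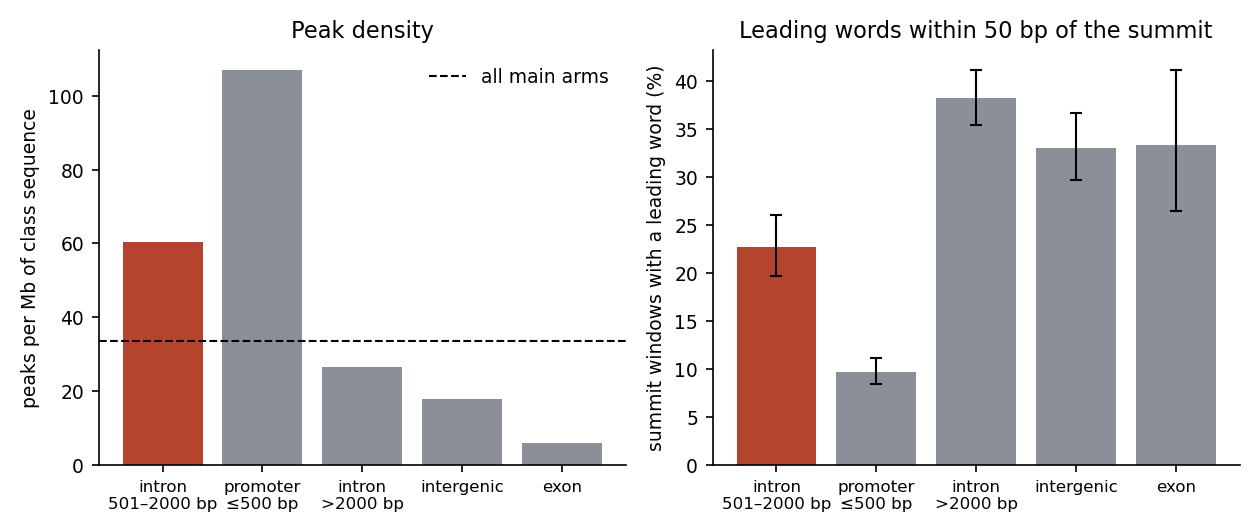
Peaks per Mb of each class of sequence (left, dashed line for all main arms) and share of summit windows with a leading word (right, bars with 95% Wilson intervals), by position of the summit. Near introns (red) held 60.5 peaks per Mb, between promoters and distant introns, and 22.7% of their windows held a leading word, more than in promoters and less than in the other classes.

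The conservative list kept 8.39% of the near-intron peaks ranked before the IDR threshold (692 of 8246), where it kept 5.13% of all ranked peaks. The share was 12.1% in promoters, 4.43% in distant introns and 3.64% in intergenic sequence. Besides the 692, 16 ranked near-intron peaks had a score of at least 830, the lowest in the thresholded list, but are not in that list, and the strongest of these had a signal of 1464. They are not members and were not analysed further.

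Of the 692 peaks, 331 shared at least 1 bp with a thresholded peak in each of the replicates. That is 47.8% (44.1 to 51.6), near the 46.8% of all peaks. Another 28.5% overlapped a peak of 1 replicate and 23.7% of neither, and each replicate alone accounted for about the same share, 62.1% for replicate 1 and 62.0% for replicate 2. Against promoter peaks, at 55.5%, the difference was -7.62 percentage points (Newcombe 95% interval -11.9 to -3.29). The share was 9.68 points above distant introns (38.2%, interval 4.99 to 14.3) and 10.7 points above intergenic peaks (37.1%, interval 5.50 to 15.8). The second list of the whole series held 629 of the 692 with the same ends and summit, 90.9%, where it held 88.2% of all peaks. A replicate peak that overlaps neighbouring peaks of the conservative list is counted for each of them.

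The signal of a peak is the authors' own value, and its scale is unknown. The median signal of the members was 88.1 (middle 50% of peaks 67.2 to 138, range 2.19 to 1992), against 101 in promoters, 81.7 in distant introns, 78.6 in intergenic sequence and 88.3 over all peaks. The members thus sat at the middle of the list, with a median percentile of 49.8, and at percentile 47.4 and 52.0 in the lists of replicates 1 and 2. They gave 5 of the 25 strongest peaks and 14 of the 100 strongest. Of the members, 682 overlapped a ranked peak in both replicates, and their log2 signals there had a Pearson correlation of 0.867 across peaks, against 0.856 over all 4540 such peaks. These peaks share libraries and are not independent, and neighbouring members can carry the signal of the same replicate peak. The IDR filter had also already kept peaks that rank alike in the sets compared. At the low end, 36 members had a signal under 20, and 35 of those lay within 400 bp of a stronger peak, so nearly all of them sat beside a higher peak. Of all members, 109 had another summit of the list within 500 bp, and the 692 made 653 separate regions once overlapping ones were merged.

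**Figure D2:**
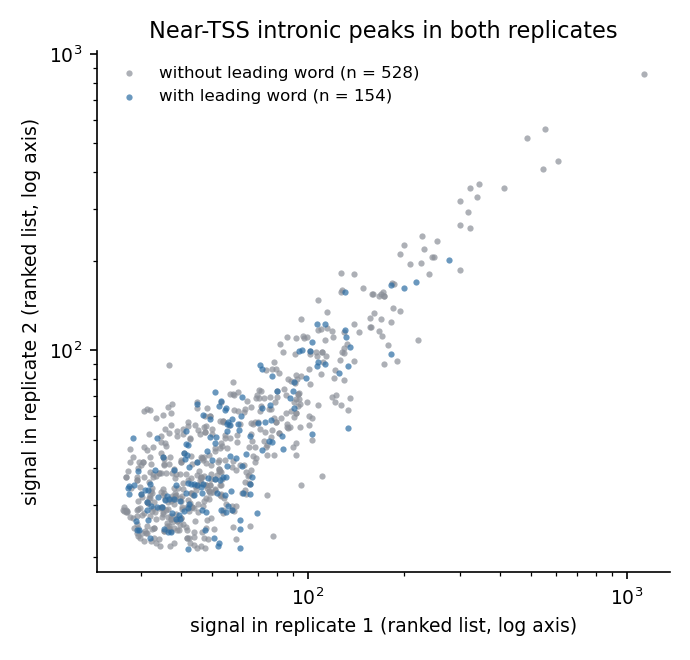
Signal of the near-intron peaks in the ranked list of replicate 1 (horizontal) and replicate 2 (vertical), both on log axes, for the 682 peaks found in both, with (blue) and without (grey) a leading word. The points follow 1 diagonal band, and the strongest point, in CG11050, has no leading word.

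The strongest member, and the strongest of all 4593 peaks, lay in CG11050, with its summit at 2L:6612709 in a short intron of 140 bp. Its signal was 1992 in the conservative list, 1131 in replicate 1 and 853 in replicate 2. The next was in CG32772 on X (1117 in the conservative list, 554 in replicate 1 and 557 in replicate 2). The third strongest was in an intron of Trl, 1524 bp into the gene (1042, with 609.5 in replicate 1 and 437 in replicate 2). Trl held a second member of signal 189. Next came Adf1, a transcription factor with a Myb-like domain (970.4, with 488 in replicate 1 and 519 in replicate 2), and an intron shared by HmgD and HmgZ, which encode HMG-box proteins that bend DNA (954, with 546 in replicate 1 and 408 in replicate 2). Of these 5, each ranked among the 25 strongest peaks of the whole list, and none held a leading word.

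The other members among the 25 strongest of the class had signals between 408 and 762. Among their genes were CG3726, CG9663, chif, a relative of the replication regulator Dbf4 whose intron also lies in Hyls1, norpA, the phospholipase C of light detection, CG43693, NFAT, a transcription factor, and CHES-1-like, a forkhead factor. They were followed by CG9837, CG4496, Csk, a kinase that restrains Src, KCNQ, a potassium channel, CG33080, Mekk1, a MAP kinase kinase kinase, and mub, an RNA-binding protein. The last were for, a cGMP-dependent protein kinase, CG31612, MYPT-75D, a targeting subunit of myosin phosphatase, LPCAT, an acyltransferase of phospholipids, and brat, a translational repressor. All 25 overlapped thresholded peaks of both replicates, and 23 had their nearest TSS in a gene that contains the summit. The exceptions were the peak in CHES-1-like, nearest to lncRNA:CR43287, and the peak in KCNQ, nearest to mlt. Only the peak in CG33080 held a leading word, and it came after 16 members without one. The A+T content of these 25 windows had a median of 72.3% (44.6 to 81.2), and 16 of the 25 were at 70% or more.

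A leading word lay in 157 of the 692 summit windows, 22.7% (19.7 to 26.0), close to the 22.9% of all peaks. It lay in 1.66% of the windows 300 bp to either side, in 1.42% of windows at every 200th base of near-intron sequence, and in 3.60% of the near-intron peaks that were ranked but not kept (272 of 7554). The words were ranked on the peaks of the other classes, so the members had no part in choosing them. The other classes did, which may raise their own shares, and the intervals of the differences do not allow for it. The share was 22.6% in the list of replicate 1 and 21.9% in that of replicate 2. Against promoter peaks, at 9.67%, the difference was 13 percentage points (interval 9.74 to 16.5). It was -15.6 points against distant introns (38.2%, interval -19.7 to -11.2) and -10.4 points against intergenic peaks (33.0%, interval -15 to -5.63). The near introns thus stood between promoters and the rest. By distance the share was 20.1% up to 1000 bp from the TSS (16.1 to 24.9), 24.7% from there to 1500 bp (19.4 to 30.8) and 25% to 2000 bp (19.0 to 32.1), with intervals that overlapped.

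The words lay close to the summit. In the 157 windows the word's centre was a median of 14.5 bp from the summit, and in 80 of them it was within 15 bp. In bins of 20 bp, 8.09% of members had a word in the bin at the summit and 0.867% in the bin 100 bp before it. Of single words, CATACGCC was in 9.10% of windows. The shared core CGTAT alone was in 30.6% of member windows, against 9.97% of windows 300 bp away and 10.6% of windows at every 200th base. Other sequences that were searched did not stand out in this way. GAGAG, which the GAGA factor binds, was in 10.5% of summit windows, 16.5% of the windows 300 bp away and 11.1% of grid windows. CGATA was in 11.0%, 11.5% and 11.2% of these windows, and the E-box CANNTG in 40.3%, 42.8% and 40.4%. TATCGATA, found in 2.62% of promoter windows, was in 1 member.

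**Figure D3:**
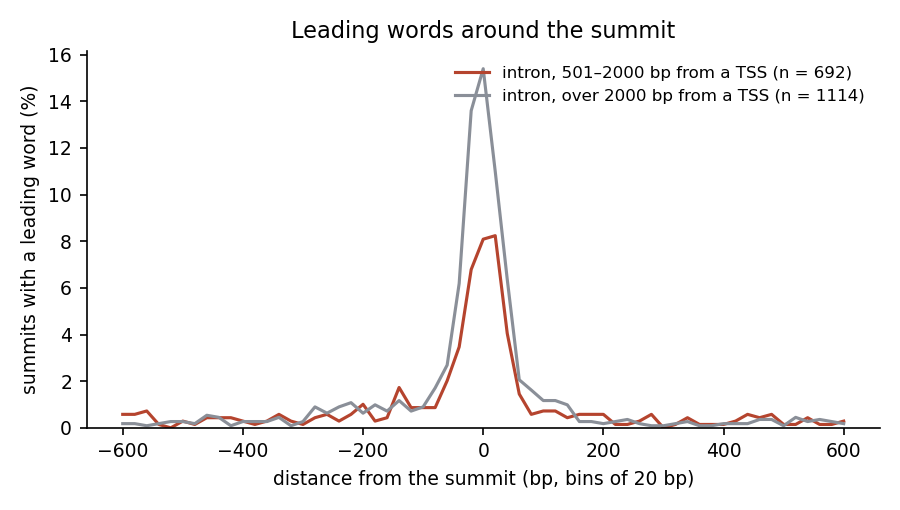
Share of summits with a leading word in each 20-bp bin, by distance from the summit, in near introns (red, 692 peaks) and in introns over 2000 bp from a TSS (grey, 1114 peaks). The curve of near introns is highest in the bin 20 bp after the summit, at 8.24% (8.09% at the summit). That of distant introns is highest at the summit, at 15.4%, and both are below 2% from 80 bp outward.

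Leading words did not go with the highest signals. The share with a word was 19.7% among the 173 members of highest signal, 28.3% and 27.2% in the 2 middle groups of 173, and 15.6% among the 173 of lowest signal. The difference between the highest and the lowest group was 4.05 points (interval -4.03 to 12.1). The lowest group included all 36 members of signal under 20, nearly all of them beside a stronger peak. None of these held a word, as the lowest signal with a word was 36.7. The strongest member with a word had a signal of 466, where 16 members without one were stronger. The medians were close, at 91.3 with a word and 86.8 without. A word was in 21.2% of the members in a first intron and 29.4% of those in later introns, a difference of -8.16 points whose interval (-17.2 to -0.0914) nearly reached 0.

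Among the 535 members without a leading word, signal went with A+T content. The median A+T content of the summit window was 71.3% in the group of highest signal (n = 139), then 69.3% (n = 124), 65.3% (n = 126) and 60.4% in the group of lowest signal (n = 146). That last group held all 36 members of signal under 20, nearly all of them beside a stronger peak. Leaving out only these members was not tried. The difference between the first and the last group was 10.9 points (interval 7.32 to 14.0). With 1 peak kept per merged region it was 8.91 points, within that interval. It was 4.98 points (3.57 to 7.20) in windows of 100 bp to either side. With only the peaks above the median signal of the list, regrouped by signal, it was 3.47 points, with an interval that includes 0 (-0.401 to 5.25). With a leading word the medians were 51.0%, 52.5%, 53.5% and 56.4%, in the same order. Windows 300 bp away had a median of 57.4%, and windows on a grid at every 200th base of near introns 60.4%. An A+T content of 70% or more was found in 55.4% of the group of highest signal without a word (47.1 to 63.4), in 16.4% of that of lowest signal (11.3 to 23.3), in 9.83% of the windows 300 bp away and in 17.5% of the grid windows. Near-intron peaks that were ranked but not kept had a median of 56.4%, with 8.01% at 70% or more.

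The A+T excess was narrow. In the group of highest signal without a word, A+T content was 70.9% in the 20 bp at the summit and 56.9% and 58.7% in the bins 100 bp before and after it. In the group of lowest signal it was 60.2% at the summit, and 59.6% and 57.0% at 100 bp. Around summits with a leading word it dipped instead, to 54.5% at the summit and 51.5% in both neighbouring bins. These values include the bases of the words, and A+T content without them was not measured. The longest unbroken run of A and T had a median of 11.0 bases in the first group, against 8 in the group of lowest signal, in the windows 300 bp away and in the grid windows. A run of 15 or more was in 25.9% of the first group, 8.22% of the group of lowest signal and 9.76% of grid windows.

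**Figure D4:**
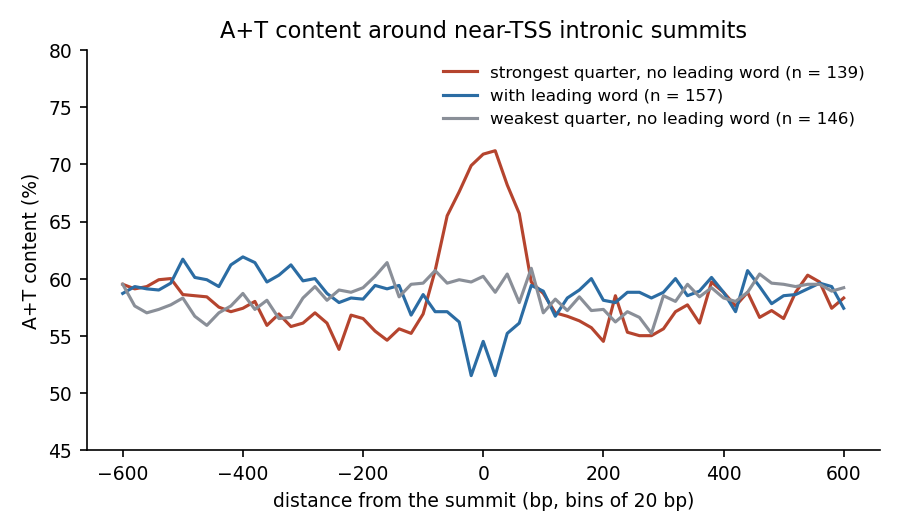
A+T content in 20-bp bins by distance from the summit, for near-intron peaks of highest signal without a leading word (red, 139 peaks), all with a leading word (blue, 157 peaks) and those of lowest signal without one (grey, 146 peaks). The vertical axis starts at 45%. The red curve reaches 71.2% within 20 bp of the summit, the grey curve stays between 55.2% and 61.4%, and the blue curve dips to 51.5%.

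The same order was seen in each replicate, with a smaller range and 1 tie. In the list of replicate 1 the medians without a word were 72.3%, 70.3%, 68.3% and 67.3%, from highest to lowest signal, and in replicate 2 they were 70.3%, 69.3%, 69.3% and 65.3%. The difference between first and last was 4.95 points in both, less than the 10.9 points of the conservative list. Those lists held 461 and 447 near-intron peaks. Across the 535 members without a word, A+T content and log2 signal had a Pearson correlation of 0.411 (Spearman 0.434), and across the 157 with one it was -0.0711. The points share libraries, and any effect of base composition on sequencing was not measured here. Other peaks without a word had the same order: the medians at highest and lowest signal were 71.3% and 62.4% in promoters, and 70.3% and 61.4% in distant introns, so the pattern was not limited to near introns. Whether sequence composition by itself raised the recovery of such DNA was not tested.

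**Figure D5:**
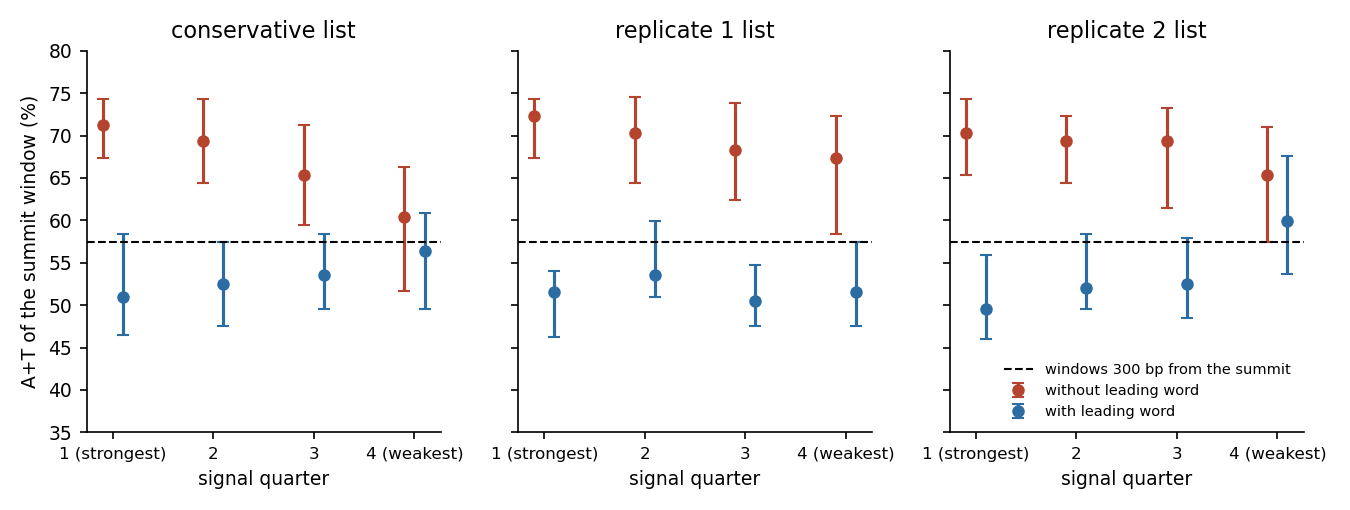
Median A+T content of the summit window, with bars for the middle 50% of peaks, by group of signal from strongest to weakest, without (red) and with (blue) a leading word, in the conservative list and in each replicate's list. The dashed line is the 57.4% of windows 300 bp away, and the red medians lie above it in all 3 lists and are highest at the highest signal.

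Most members lay in the first intron of a transcript, which is where near-TSS intron sequence mostly is. The share was 81.8% (78.7 to 84.5), against 64.3% of near-intron bases. The nearest TSS belonged to a gene that contains the summit in 83.1% of members and at 71.1% of bases. The surplus was at internal start sites. The nearest TSS was an alternative start downstream of the gene's outermost one in 52.7% of members and at 40% of bases, while it was the outermost start of such a gene in 30.3% and 31.1%. Summits lay downstream of the nearest TSS in 65.2% of members and at 64.5% of bases, so position relative to the direction of transcription did not set them apart. Few lay close to an end of their intron, measured in the transcript chosen for each position. An end lay within 100 bp of 3.47% of summits and of 14.7% of bases. The median distance was 1049.5 bp for summits and 920 bp for bases. The nearest TSS was that of a protein-coding gene in 90.5% of members, of a noncoding RNA in 7.80% and of a tRNA gene in 1.16%, against 85.9%, 11.7% and 1.11% of bases.

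A minority of these peaks had a partner at the start site, though a larger share than of near-intron bases or distant-intron peaks. The nearest TSS had a summit within 500 bp for 129 of the 692, 18.6% (15.9 to 21.7), against 11.0% of near-intron bases and 10.8% of distant-intron peaks. The share was lower in smaller lists, at 12.8% in that of replicate 1 (10.1 to 16.2), 12.1% in that of replicate 2 (9.38 to 15.4) and 12% among peaks above the median signal (8.93 to 15.8). Counted against the summits of those same lists, the bases gave 7.88%, 8.23% and 6.95%, in the same order. Members with such a partner held a leading word in 14.7% of windows, against 24.5% without, and their median signals were 90.0 and 87.8.

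The members lay in introns of 594 genes, 578 of them protein-coding. That is 6.41% of the 9015 protein-coding genes with such intron sequence. Host genes offered more of it, with a median of 3639.5 bp against 339 bp in the others, and gene counts were not adjusted for this. Of the 594, 481 held 1 member, 82 held 2 and 31 held at least 3. CHES-1-like held 7 in 7484 bp of eligible intron sequence, all in its first intron and all in both replicates, with signals between 50.9 and 568, and none with a leading word. Then came dlg1, a scaffold protein of cell junctions and synapses, with 6, of signal 8.74 to 224. NFAT held 5, and so did CG42258, CG1677 and SNF4Agamma, a subunit of AMP-activated protein kinase. The intron of CG1677 also lies in lncRNA:CR44357. Tlk, a chromatin-linked kinase, held 4, and HmgZ and norpA held 3 each. In dlg1 the strongest peak, of signal 224 (134 in replicate 1 and 88.2 in replicate 2), was the 1 with a leading word, and its A+T content was 46.5%.

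Gene lists were read against the 6.41% of genes and against 60.5 peaks per Mb. Of 21 genes of EGFR and FGFR signalling with such introns, 8 held members, 12 peaks in all or 157 per Mb (95% Poisson interval 81.3 to 275). Among them were drk, the Grb2 adaptor (signal 224), ths, an FGF ligand (212), pnt, an ETS factor (184), and sty, the inhibitor sprouty (124). The receptor Egfr held 1, of signal 87.0. Of 15 ecdysone response genes, 7 held members, 13 peaks or 117 per Mb (62.2 to 199.8). The lower end of that interval lies just above 60.5, and the density with neighbouring summits counted once was not computed. Eip75B held peaks of signal 368 and 99.0, both with a leading word. ImpL2, which binds insulin-like peptides, held 1 of signal 256, tai, a coactivator of the ecdysone receptor, 3 (highest 101), and the receptor gene EcR 3 (highest 94.9). Of 23 Polycomb and trithorax group genes, 4 held 5 peaks, in Trl, ph-p, brm and kis. That is 171 per Mb, with an interval that includes 60.5 (55.4 to 398). A gene that held a peak was not always the one with the nearest TSS. For the peaks in drk and pnt the nearest TSS was that of another gene, and for those in ths and sty it was their own. Neighbouring summits were counted separately, and the EcR peaks of signal 94.9 and 39.4 had the same replicate signals (49.5 and 60.0). In the EGFR and FGFR list, another gene held peaks of signal 60.3 and 3.27 that shared their replicate signals (38.7 and 27.0). Neither of them, nor the sty peak of signal 59.4, overlapped a thresholded peak of either replicate. The counts are of genes on lists chosen with earlier results known, and the intervals cover counting error only.

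In each of the other lists, as in the Polycomb and trithorax list, the interval of the density included the overall density. Of 23 RNA-binding and splicing genes, 7 held 10 peaks (48 per Mb, 23.0 to 88.2), with mub and brat the strongest, followed by Sxl, the switch gene of sex determination (133), and pum, a translational repressor (116). Synapse and channel genes held 5 peaks in 4 of 19 genes (67.3 per Mb), the strongest in para, a sodium channel (200.0), with a leading word. Muscle structural genes held 4 peaks in 3 of 16 (91.4 per Mb, 24.9 to 234), led by Msp300 (317). Of 36 genes of cell adhesion and axon guidance, 3 held members (33.3 per Mb): fra, the netrin receptor (129), Ptp10D (97.1) and the netrin gene NetB (68.1). The Notch pathway (2 of 13, with neur at 205), segment polarity (2 of 20, with Wnt10 at 102), neural fate (2 of 11, repo and pros, each with a leading word), mesoderm (1 of 14, zfh1 at 279), maternal and gap (1 of 14, tsl at 85.9) and Hox lists (1 of 8) held 1 to 3 peaks each. In the Hox list that gene was Abd-B, with peaks of signal 86.1 and 85.7. No member lay in the pair-rule genes (5 with such introns), the insulator and architectural protein genes (11) or the cytosolic ribosomal protein genes (26), but those lists offered only 0.00529, 0.00540 and 0.00533 Mb of intron sequence, where less than 1 peak would be counted at the overall density.

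The gene of the tagged protein itself, annotated as Phs (3L:15619901-15624130), had 1 member within 5000 bp, 3344 bp beyond its end. It is the comm3 window printed above, in an intron that also spans the tagged gene, with a signal of 255 (132 in replicate 1 and 111 in replicate 2) and leading words at 2 sites. Whether reads of an inserted copy added to this signal cannot be told from the peak lists.

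The bounds of the rule fall within a continuous range. The members nearest the lower bound, both at 503 bp, lay in CG31612 (signal 421) and CG15717, nearest to MFS10 (57.3), and the intronic peaks just outside lay in ph-p at 499 bp (1212) and aru at 498 bp (278). At the upper bound the members lay in CHES-1-like at 1995 bp (102) and fru at 1988 bp (123), and those just outside, both 1 bp past the bound, in snu (87.2) and in hiw, nearest to be (123). Median signals were 95.8 for the 71 members within 100 bp inside the lower bound and 97.1 for the 69 intronic peaks within 100 bp outside it. At the upper bound they were 82.7 for the 29 members inside and 86.9 for the 27 peaks outside.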

How the data were processed

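The files are 8 peak lists on dm6, and per the file headers those of the whole series were derived from the alignments of both replicates and further unnamed inputs. The signal of each peak, the score and the −log10 of the q-value are the authors' values, as deposited, and the −log10 q-values were not used. All thresholded peaks have a score of 830 or more. For the aligner and the peak caller, names and settings were not given in the sources used here. Depth is unknown, since the files hold no read counts, so intervals cover counting over peaks only. A further 16 columns of per-input values in the ranked lists were not used.

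Summits were classed with the Ensembl annotation, without its transposable-element entries, using Python 3.11.15, numpy 2.4.6, pandas 2.3.3 and scipy 1.17.1. Windows reached 50 bp from the summit, and flanking windows were centred 300 bp away. Shares carry 95% Wilson intervals, differences Newcombe intervals, densities exact Poisson intervals, and medians intervals from their order statistics, combined for a difference. Peaks are not replicates, so no p-value is given. The code was tested on simulated data. The peaks, lists and words were chosen with earlier results of these data known, and A+T content by signal was added after seeing them. By rule the text names CG7372, the host and nearest-TSS genes of the 25 strongest members, up to 4 hosts per list by signal, genes with at least 3 members (up to 10), genes at the bounds and those of the printed windows. Egfr falls outside it and was named after its value was seen, and 1 gene among the 25 is not reported here by name.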

Additional observations from a re-analysis of the deposited data

How the results depend on the processing

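No paired analysis was possible because the study has 1 group. Of 96 alternatives to 11 results, 74 stayed within the interval of the value reported, or for the number of peaks within 1.5 times it. Only the A+T difference was checked for a change of sign, and it kept its sign in each alternative. With the list of 1 replicate in place of the conservative list, the number of near-TSS intronic peaks was 447 to 461, their share of all peaks 14.5% to 16.5%, the density ratio 1.74 to 1.97 and the median signal percentile 47.4 to 52.0. The share with a summit at the nearest TSS was 12.1% to 12.8%, below the 18.6% reported, and the A+T difference between highest and lowest signal was 4.95 points in both lists. These lists hold fewer peaks. With only peaks above the median signal there were 343 such peaks, 84.8% of them overlapped both replicates, 12% had a summit at the nearest TSS and the A+T difference was 3.47 points, with an interval of -0.401 to 5.25. A narrower range of distance, leaving out either the nearest 250 bp or the farthest 500 bp, gave a share of 11.5% of all peaks by its own construction. Requiring a replicate summit within 50 bp gave 39.6% in both replicates. A window of 100 bp to either side gave 26.4% with a leading word and an A+T difference of 4.98 points, and CGTAT in place of the leading words gave 30.6%. With start sites of protein-coding genes only, 84.9% lay in a first intron and 90.1% had their nearest TSS in a host gene. Counting transposable-element entries as genes, an alternative added after seeing the data like those of the A+T difference, lowered the share with a host gene at the nearest TSS to 78.2%. The cause of these shifts was not tested. With 2 replicates and no read counts, the precision of single peaks is unknown, and peaks missing from a list may lie under its threshold.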
